A study of Sus scrofa with 18 samples.

Results

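The 9 genes described here, MX1, RSAD2, IFIT1, IFIT3, IFI44L, EIF2AK2, DDX58, XAF1 and ISG12(A), encode antiviral proteins whose transcription is switched on by interferon. They were measured in the retinas of 18 male piglets, Landrace × Large White crosses sampled at postnatal day 38. The tested diet, given to 9 piglets, was milk replacer supplemented with sialyllactose, a milk sugar in which sialic acid is joined to lactose. The other 9 piglets had the milk replacer at its basal level and are called control. All piglets were bought from a commercial piggery at 3 days of age and were allocated to the diets at random. Total RNA of each retina was hybridised to 1 Affymetrix pig array, and the array was scanned to give 1 value per probe set.

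The genes were taken by name. Every probe set whose only gene symbol in the platform annotation was one of these names was kept, and the set with the highest mean over the 18 arrays stood for its gene. This gave 17 probe sets for 9 genes, out of 24123 probe sets on the array. Of the 17 sets, 11 were bright enough to enter the test, 3 were left out with the dimmest 30% of sets and 3 were array control sets for RSAD2. All 9 genes had at least 1 tested set. The genes were chosen after earlier work on these data had shown that they varied widely and together among the piglets. Their levels, their spread and their co-variation are therefore a description without a test.

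Interferons are secreted when a cell detects viral RNA or DNA. They bind receptors on the same and on neighbouring cells, and the kinases JAK1 and TYK2 then pass the signal to transcription factors that bind a shared promoter element of a large set of genes. The products of these genes slow viral entry, transcription, translation and budding. Resting tissue expresses most of them at a low level, and they are induced together, so their messenger RNAs are widely used as a readout of interferon exposure. In the retina, microglia, Müller glia, endothelium and neurons can all respond to interferon.

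Levels are log2 values from robust multi-array averaging (RMA), so 1 unit is a doubling of signal. Any 2 arrays correlated at 0.981 to 0.992 over the tested sets, and none were duplicates. The brightest photoreceptor and Müller glia markers went with the tissue label, while other photoreceptor markers were dimmer. The rod arrestin SAG lay between 10.3 and 10.7 in sialyllactose retinas and between 10.5 and 10.8 in control retinas, and the cone arrestin ARR3 lay between 9.40 and 10.1 in sialyllactose retinas and between 9.11 and 10.2 in control retinas. GLUL, the brightest Müller glia marker, lay between 10.1 and 10.9 in sialyllactose retinas and between 10.2 and 11.0 in control retinas. The median level of all tested sets was 3.87. Of the other tested photoreceptor markers, OPN1SW had medians of 5.22 in sialyllactose and 5.01 in control retinas. The medians of CNGA1 (3.43 and 3.27), GRK7 (3.72 and 3.44) and PDE6C (1.67 and 1.69) were below 3.87. Litter and hybridisation batch are not given in the labels and could not be examined.

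In these retinas each antiviral gene lay in the lower part of its own range in most piglets and was high in a few, on both diets. By mean level, EIF2AK2, ISG12(A) and MX1 stood at percentiles 81.9, 81.1 and 79.7 of the tested sets, and IFI44L at 54.6. The other genes lay between percentile 22.6 for XAF1 and 35.3 for IFIT3. MX1, a GTPase that traps viral nucleocapsids, had a lowest, median and highest value of 4.56, 4.86 and 7.77 in sialyllactose retinas and of 4.63, 5.26 and 6.37 in control retinas. RSAD2, also called viperin, a radical SAM enzyme that makes a chain-terminating nucleotide, had 1.29, 1.76 and 5.63 in sialyllactose retinas and 1.28, 2.10 and 4.47 in control retinas. The diets overlapped in both genes, and in both the highest sialyllactose retina stood above every control retina. From the lowest to the highest of the 18 retinas, signal spanned 9.26-fold for MX1 and 20.4-fold for RSAD2, which had the widest span of the 9 genes.

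The sensor DDX58, better known as RIG-I, binds viral RNA with a 5′ triphosphate and starts interferon production. It had 1.85, 2.18 and 4.67 in sialyllactose retinas (lowest, median and highest) and 1.73, 2.19 and 2.97 in control retinas. Its medians nearly coincided, and its wide span of 7.68-fold came from the upper end of the sialyllactose group, where sialyllactose 7 was at 4.67.

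EIF2AK2, IFIT1 and its partner IFIT3 belong to the arm that blocks viral translation. EIF2AK2, the kinase PKR, phosphorylates an initiation factor when it binds double-stranded RNA. It had 4.90, 5.34 and 7.02 in sialyllactose retinas and 4.98, 5.41 and 6.71 in control retinas, a span of 4.34-fold over all 18. IFIT1, which binds viral RNA caps that lack methylation, had 1.43, 2.20 and 4.79 in sialyllactose retinas and 1.71, 2.37 and 4.39 in control retinas. IFIT3, the partner that stabilises IFIT1 in human cells, had 1.94, 2.48 and 5.44 in sialyllactose retinas and 2.00, 2.74 and 4.16 in control retinas. The diets overlapped in all these genes, and the IFIT1 and IFIT3 signal spanned 10.3-fold and 11.3-fold over the 18 retinas. IFIT1 and IFIT3 are neighbours in the RefSeq gene table of the pig assembly Sscrofa11.1.

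The remaining genes are interferon-induced proteins with a less settled mechanism. ISG12(A), a small membrane protein of the IFI27 family, had 4.07, 4.64 and 8.21 in sialyllactose retinas and 4.31, 5.19 and 7.30 in control retinas, a span of 17.6-fold. IFI44L had 2.71, 3.42 and 6.21 in sialyllactose retinas and 3.16, 3.82 and 5.47 in control retinas, a span of 11.3-fold. XAF1, which antagonises an inhibitor of apoptosis, had 1.78, 2.16 and 3.63 in sialyllactose retinas and 1.78, 2.23 and 3.01 in control retinas, the narrowest span at 3.60-fold. The ranges overlapped over most of their length in these genes as well. RSAD2 lay below 1.48, the lowest mean of any tested set, in 4 retinas and IFIT1 did so in 1, and RMA gives no detection call for such values.

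**Figure D1:**
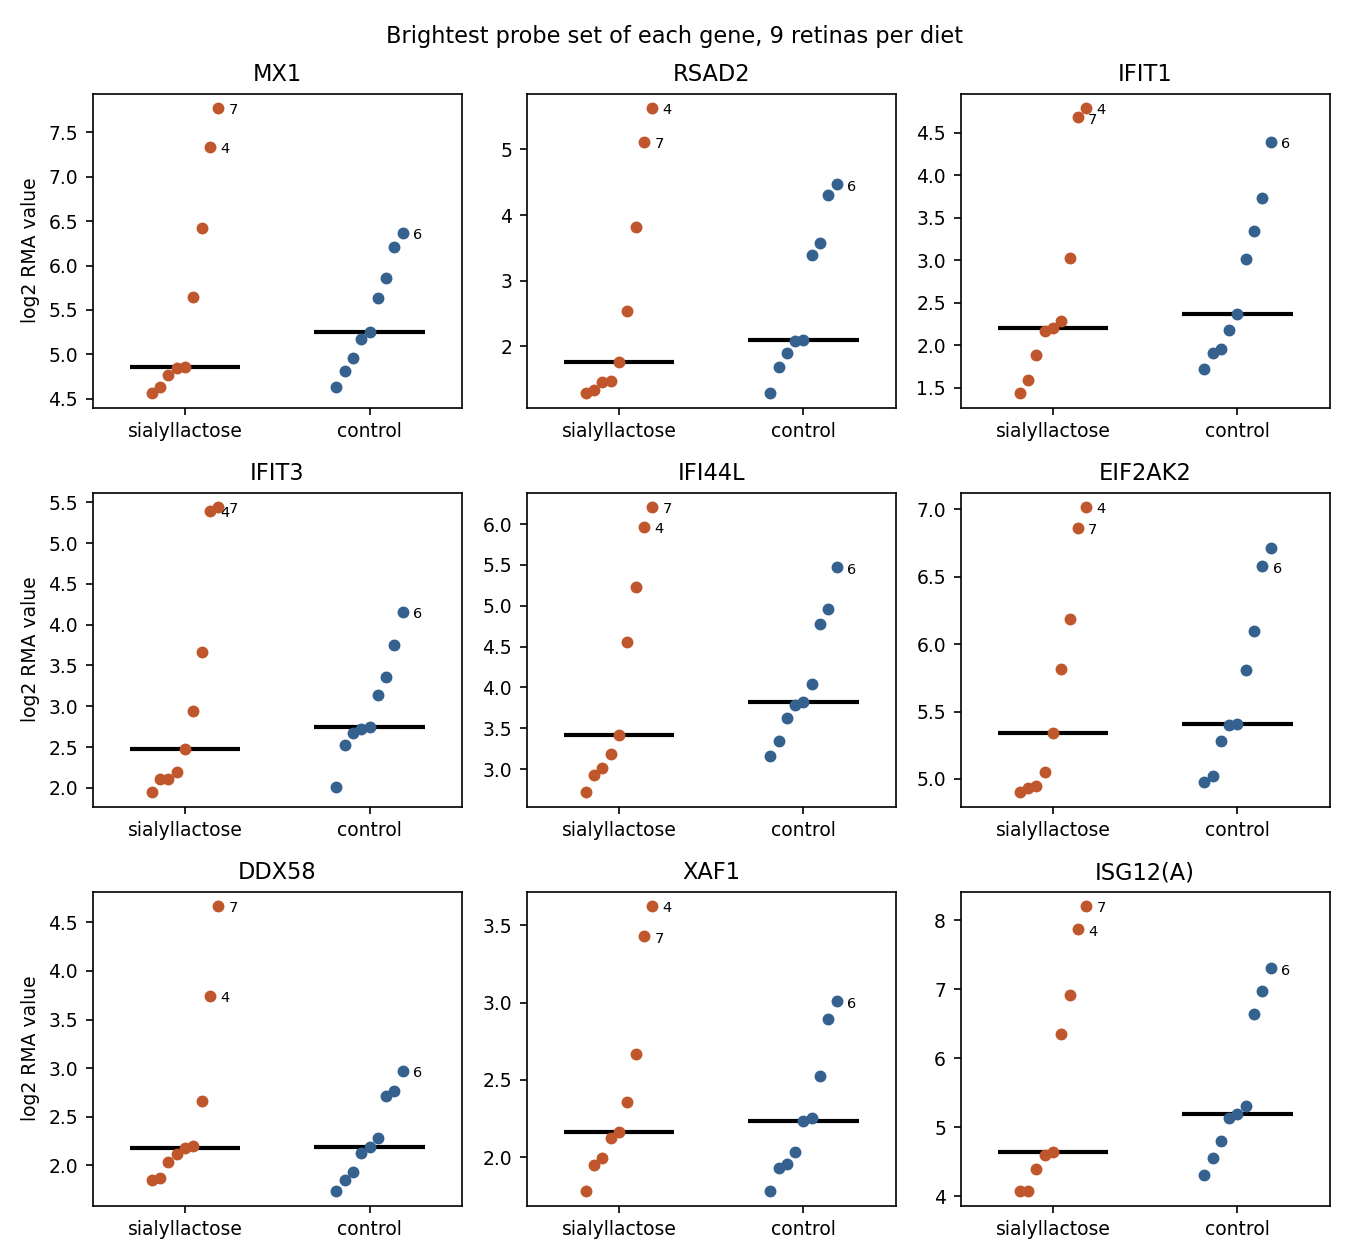
Log2 RMA value of the brightest probe set of each gene in 9 sialyllactose retinas (left in each panel) and 9 control retinas (right); bars are medians and the numbers mark sialyllactose 4, sialyllactose 7 and control 6. In each panel the 2 marked sialyllactose retinas stand highest, and the sialyllactose median lies below the control median.

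The spread within diets was large beside that of other genes. The pooled SD within diets was 1.47 for RSAD2, 1.42 for ISG12(A), 1.12 for IFI44L, 1.11 for IFIT1, 1.09 for IFIT3 and 0.976 for MX1. It was 0.756 for DDX58, 0.748 for EIF2AK2 and 0.559 for XAF1, against a median of 0.156 over the 16799 tested probe sets. By SD, RSAD2 was number 5 and ISG12(A) number 6 of all tested sets, and XAF1, the least variable member, was number 124. A span of over 4-fold was found in 8 of the 9 genes and in 112 of the 16799 tested sets, or 0.667%. These figures restate why the genes were chosen.

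The same retinas were high in every gene. Each gene's value was expressed as its deviation from the gene's mean over 18 retinas, and the 9 deviations of a retina were averaged. Sialyllactose 7 had a mean deviation of 2.01 and sialyllactose 4 of 1.90, which corresponds to 4.03-fold and 3.73-fold above the average retina. These 2 retinas held the top 2 places in 9 of 9 genes. Sialyllactose 7 was the highest in MX1, IFIT3, IFI44L, DDX58 and ISG12(A), and sialyllactose 4 was the highest in RSAD2, IFIT1, EIF2AK2 and XAF1. Control 6 came next at 1.16 and held the third place in 7 genes.

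Below these, values ran down without a break as large. Sialyllactose 3 stood at 0.70, control 3 at 0.65, control 8 at 0.59 and control 5 at 0.21. The largest step in the order, 0.741, lay between sialyllactose 4 and control 6. At the other end, sialyllactose 9 had a mean deviation of -0.96 and control 9 of -0.95. Retinas above the gene's own median in all 9 genes numbered 7, of which 3 were from sialyllactose and 4 from control piglets. Retinas below it in all 9 genes numbered 4, of which 3 were from sialyllactose and 1 from control piglets. Kendall's coefficient of concordance, which is 1 when all genes rank the retinas alike, was 0.857.

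**Figure D2:**
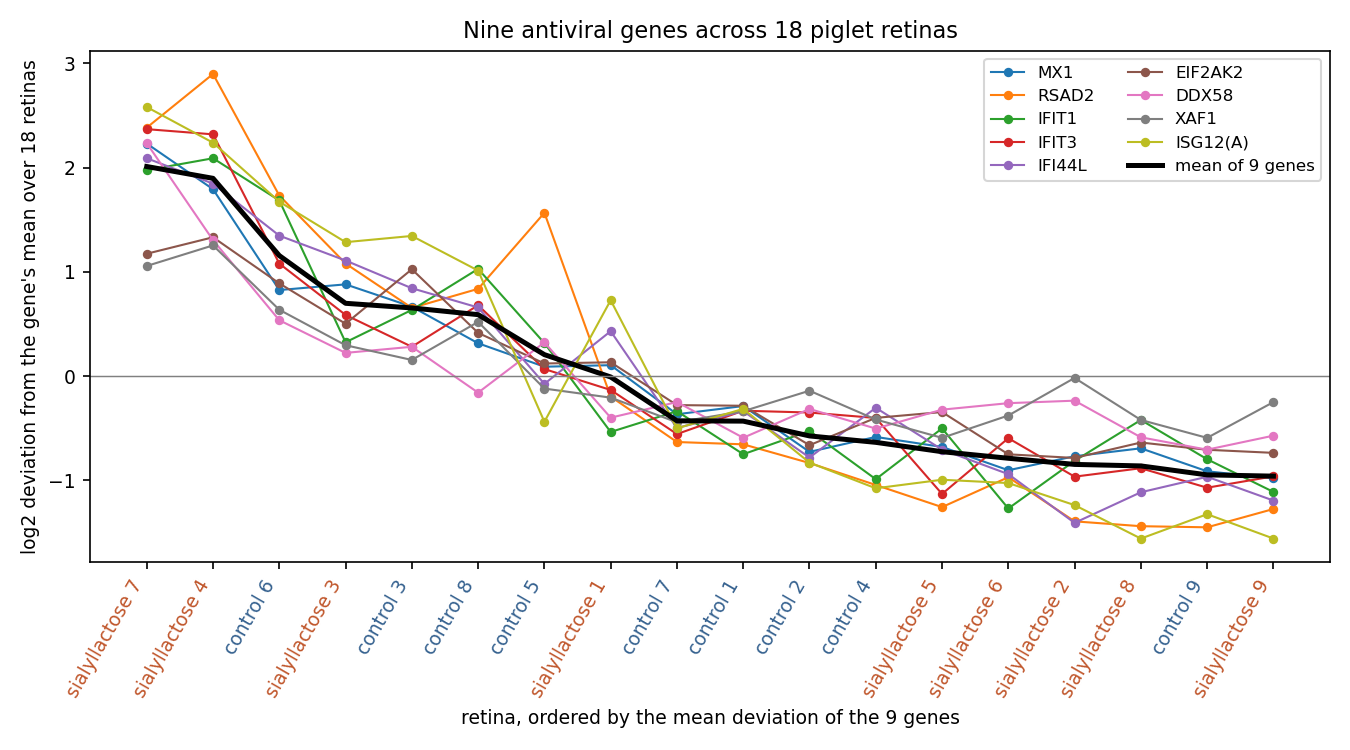
Deviation of each of the 9 genes from its mean over 18 retinas (log2, vertical axis) in retinas ordered by the mean of the 9 genes (black line), with sialyllactose retinas named in orange and control retinas in blue. The mean runs down to -0.96 in sialyllactose 9, with sialyllactose 7 highest at 2.01, and retinas of both diets lie at either end.

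A few retinas had an uneven profile. In control 5, RSAD2 lay 1.57 above its mean over the 18 retinas, while DDX58 lay 0.32 above and ISG12(A) 0.44 below, a deviation of -0.44. In sialyllactose 1, ISG12(A) had a deviation of 0.73 and IFI44L of 0.43, while IFIT1 had -0.54 and DDX58 -0.40. In control 3, EIF2AK2 was the highest of the 9 control retinas with a deviation of 1.03 and ISG12(A) had 1.34, while IFIT3 had 0.28. With 1 array per retina, the array's own error in these deviations is unknown.

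Pairwise correlation put numbers on this shared order. After the diet means were subtracted, Pearson r over the 18 retinas ranged from 0.833 to 0.982 over the 36 pairs of genes, with a median of 0.927, and Spearman rho had a median of 0.870. Over all pairs among the 5710 tested genes the median r was 0.00775, and the 5th and 95th percentiles were -0.444 and 0.460. The genes were chosen with this shared pattern known, so the contrast restates the choice. The closest pair was IFI44L and ISG12(A) at 0.98, followed by MX1 and IFI44L, also at 0.98. The loosest was DDX58 and ISG12(A) at 0.83. All values of a retina come from 1 array and 1 RNA sample.

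Within the 9 sialyllactose retinas the median pairwise r was 0.952, and within the 9 control retinas it was 0.904. Without sialyllactose 4 and 7, the 2 retinas farthest from the median, r over the other 16 ranged from 0.718 to 0.967 with a median of 0.854, and median rho was 0.772. The lowest r in these 16 retinas was between IFI44L and DDX58, at 0.72. The median r was thus above that over all 18 retinas in the sialyllactose group, and below it in the control group and without the 2 highest retinas. By rank the order of the diets was reversed. Median rho was 0.767 within sialyllactose retinas and 0.867 within control retinas, against 0.870 over all 18.

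**Figure D3:**
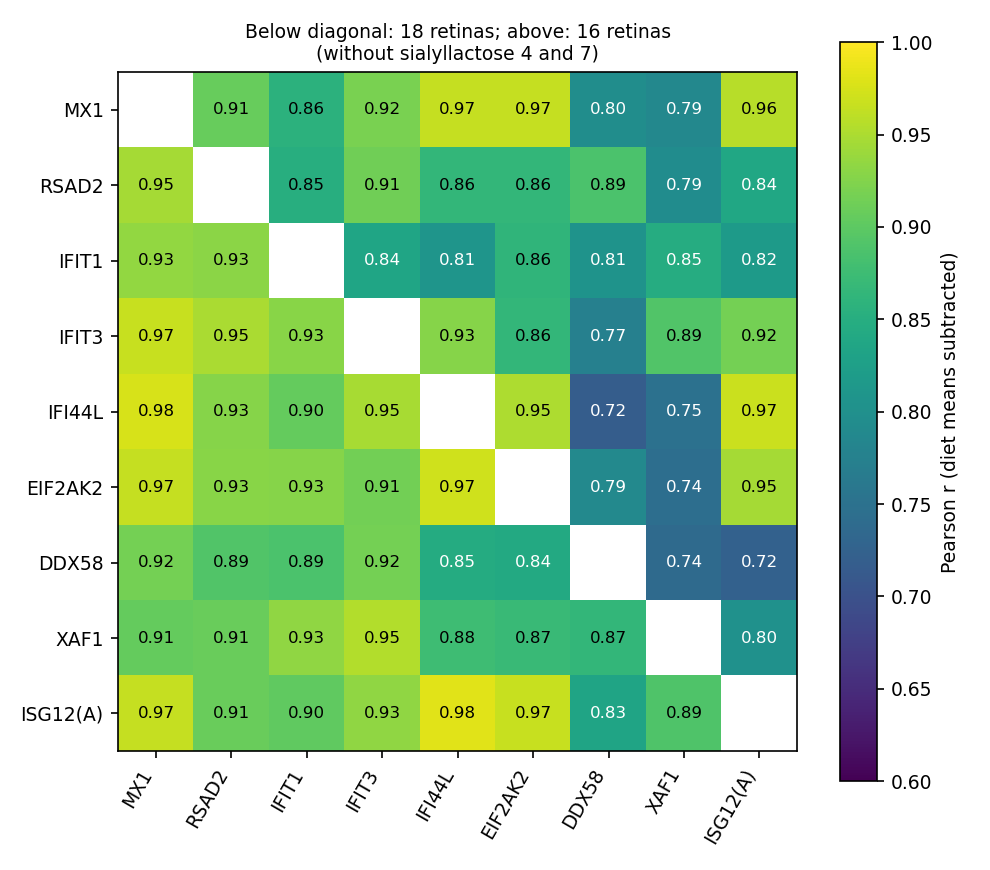
Pearson r between the 9 genes after subtraction of diet means, over 18 retinas below the diagonal and over 16 retinas, without sialyllactose 4 and 7, above it; the colour scale runs from 0.6 to 1. All 36 pairs lie between 0.833 and 0.982 below the diagonal and between 0.718 and 0.967 above it, with DDX58 and XAF1 in the lower pairs.

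The genes moved together but not by equal amounts. For each change of 1 log2 unit in the mean of the other 8 genes, RSAD2 changed by 1.50 and ISG12(A) by 1.43. IFI44L, IFIT3 and IFIT1 had slopes of 1.11, 1.08 and 1.06, and MX1 had 0.97. EIF2AK2 at 0.70, DDX58 at 0.66 and XAF1 at 0.50 had the shallowest slopes. The correlation with the mean of the others was lowest in DDX58, at 0.901, and highest in MX1, at 0.987. RMA compresses differences of dim probe sets, so the slopes compare array signals and not transcript numbers.

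Several genes had further probe sets, which read other stretches of the transcript on the same arrays. The other 2 sets of IFI44L followed its brightest set with r of 0.917 and 0.938, and the other set of DDX58 did so with r of 0.922. Of the other sets of IFIT1, one followed with r of 0.948 and the other did not, with r of 0.0890 and values between 1.20 and 1.52 in all retinas. The 3 sets of RSAD2 among the array's controls are placed at the 3′ end, the middle and the 5′ end of the transcript. Over the 18 retinas the 3′ set ranged from 0.372 to 2.93 with r of 0.964, the middle set from 0.621 to 1.36 with r of 0.824, and the 5′ set from 1.59 to 2.23 with r of 0.648. All 3 ranges were narrower than the 4.35 units of the brightest set.

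**Figure D4:**
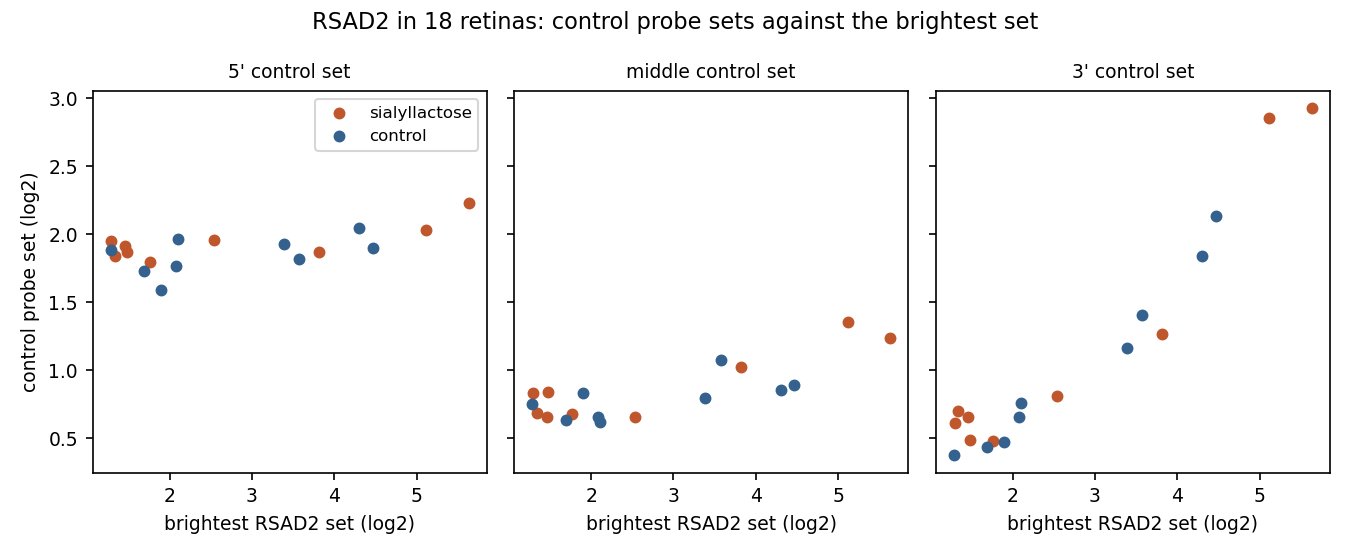
Log2 value of the 5′, middle and 3′ control probe sets of RSAD2 (vertical axes) against its brightest set (horizontal axis) in 9 sialyllactose retinas (orange) and 9 control retinas (blue). The 3′ set follows the brightest set most closely (r of 0.964), while the middle and 5′ sets cover ranges of 0.74 and 0.64 units.

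The diet comparison asked whether sialyllactose feeding went with another level of these genes, and no difference passed the test. MX1 averaged 5.65 ± 1.23 in sialyllactose retinas and 5.43 ± 0.62 in control retinas (log2, mean ± SD, n = 9 each), a difference of 0.22 with a 95% interval of -0.62 to 1.06. RSAD2 averaged 2.72 ± 1.71 in sialyllactose retinas and 2.75 ± 1.19 in control retinas, a difference of -0.04 with an interval of -1.31 to 1.23. By the brightest sets, DDX58 had the largest difference of the 9, at 0.31 with an interval of -0.35 to 0.96. It averaged 2.59 ± 0.97 in sialyllactose retinas and 2.28 ± 0.44 in control retinas. The other tested set of DDX58 differed by only 0.05. With the tested sets of DDX58 averaged, its difference was 0.18, below that of MX1. The groups overlapped in each gene, and 4 of 9 sialyllactose retinas were above the control median in every gene except IFIT1, where 3 were.

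IFIT1 averaged 2.67 ± 1.25 in sialyllactose retinas and 2.73 ± 0.93 in control retinas, a difference of -0.06 (-1.01 to 0.89). IFIT3 averaged 3.14 ± 1.40 in sialyllactose retinas and 3.01 ± 0.66 in control retinas, a difference of 0.13 (-0.81 to 1.08). EIF2AK2 averaged 5.67 ± 0.84 in sialyllactose retinas and 5.70 ± 0.64 in control retinas, a difference of -0.03 (-0.67 to 0.62). In these translation-related genes the diet means lay within 0.13 of each other, well inside the spread among piglets.

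IFI44L averaged 4.13 ± 1.38 in sialyllactose retinas and 4.11 ± 0.79 in control retinas, a difference of 0.03 (-0.94 to 0.99). XAF1 averaged 2.45 ± 0.66 in sialyllactose retinas and 2.29 ± 0.43 in control retinas, a difference of 0.16 (-0.32 to 0.65). ISG12(A) averaged 5.68 ± 1.67 in sialyllactose retinas and 5.58 ± 1.10 in control retinas, a difference of 0.10 (-1.12 to 1.32). The intervals of all 9 genes included 0. They were wide: for RSAD2 they reached from 0.404-fold to 2.35-fold and for XAF1, the narrowest, from 0.801-fold to 1.57-fold, so a difference inside them could not be told from none with 9 arrays per diet.

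Across all 16799 tested probe sets, limma called 0 (0%) at an adjusted p under 0.05, and 0 of the 9 genes. The limma adjusted p of the members ran from 0.905 for DDX58 to 0.998 for IFI44L. At an unadjusted p under 0.05, limma gave 494 sets higher (2.94%) and 565 sets lower (3.36%) in sialyllactose retinas, together 6.3% of the tested sets and none of the 9 genes, and exact rank-sum tests gave 918 sets, again with none of the 9. In 6 of the 9 genes the sialyllactose mean was higher and in 3 it was lower, and the median difference was 0.10 against -0.01 over all tested sets. No gene's diets were fully separated, as in 0 (0%) of all tested sets.

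Means and medians pointed in different directions in 6 of the 9 genes. The sialyllactose median lay below the control median in all 9 genes, by 0.01 for DDX58 and by 0.56 for ISG12(A) at the extremes, as the median differences ran between -0.01 and -0.56. The 9 genes move together, so these are not independent observations, and the lowest exact rank-sum p among them was 0.605. The mean deviation over the 9 genes had a group mean of 0.05 in sialyllactose retinas and -0.05 in control retinas, but a median of -0.73 in sialyllactose retinas and -0.43 in control retinas. Without sialyllactose 4 and 7, which were picked for their high values, the difference of means was below 0 in all 9 genes, between -0.14 for XAF1 and -0.80 for RSAD2. The sign of the mean difference changed without these 2 retinas in 6 genes, MX1, IFIT3, IFI44L, DDX58, XAF1 and ISG12(A).

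**Figure D5:**
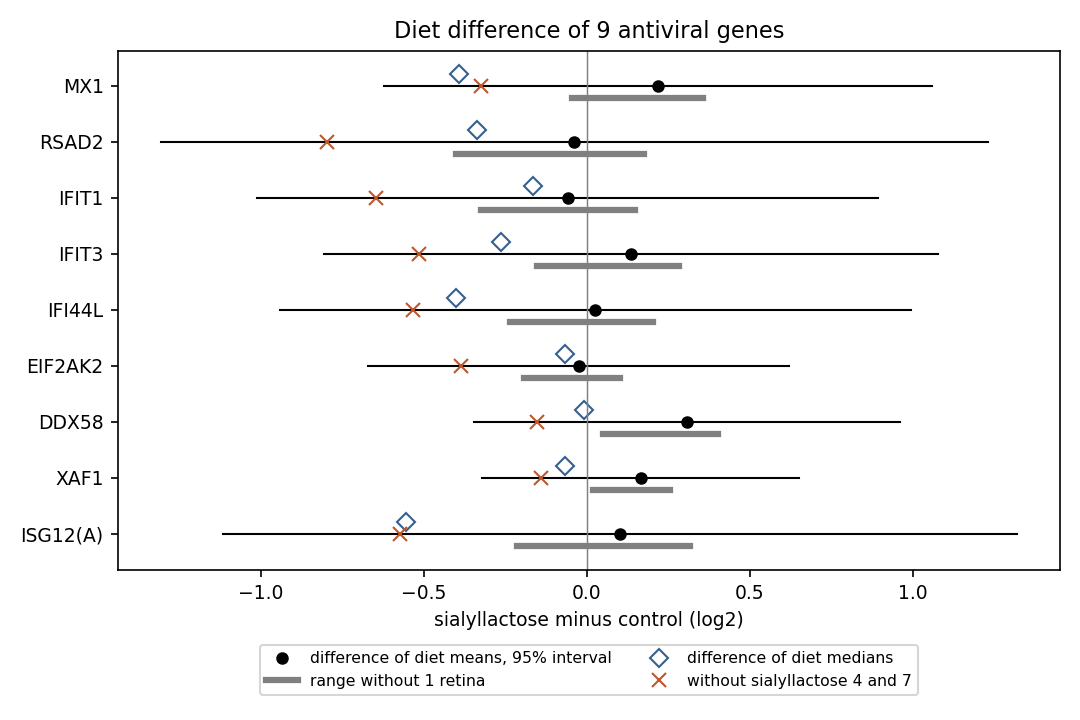
Sialyllactose minus control for each gene (log2, horizontal axis): difference of means with its 95% limma interval (black), range when 1 retina is left out (grey), difference of medians (diamonds) and difference of means without sialyllactose 4 and 7 (crosses). Every interval includes 0, all diamonds lie below 0, and the crosses lie between -0.14 and -0.80.

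The SD among piglets was larger in sialyllactose than in control retinas in 9 of the 9 genes, with SDs of 0.661 to 1.71 in sialyllactose retinas and of 0.434 to 1.19 in control retinas. Among all tested sets the sialyllactose SD was the larger in 37.4%. The 9 genes move together and are no independent observations, and the difference in spread was not tested. Without sialyllactose 4 and 7, the SD of the other 7 sialyllactose retinas was larger than the control SD in 3 of 9 genes. Both retinas were picked for their high values and no control retina was left out, so this count does not compare like with like.

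Other genes of the interferon pathway were taken from lists chosen by function. None of the listed genes passed the limma test between diets. Of the ligands, IFNB1 had a lowest, median and highest value of 0.33, 0.55 and 0.82 in sialyllactose retinas and of 0.45, 0.64 and 0.97 in control retinas. IFNG had 0.52, 0.74 and 0.97 in sialyllactose retinas and 0.57, 0.75 and 0.89 in control retinas. Both ligands were left out with the dim sets, and their values stayed within 1 log2 unit in all retinas. IFNA1 was tested and had 2.55, 2.70 and 2.93 in sialyllactose retinas and 2.48, 2.73 and 2.88 in control retinas, with r of -0.11 to the members' mean deviation over 18 retinas.

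The receptor chains IFNAR1, IFNAR2 and IFNGR1 had r of -0.40, 0.22 and 0.35 with the members' mean deviation. Of the 4 tested ligands and receptors, 1 had a higher and 3 a lower sialyllactose mean, with a median difference of -0.10. The kinases JAK1 and TYK2 had r of -0.21 and -0.46, and IRF3, which relays the signal of the RNA sensors, had -0.39. The signalling genes that interferon itself induces lay higher, with 0.90 for IRF9, 0.78 for IRF1, 0.66 for IRF7 and 0.41 for STAT2. Of the 9 tested signalling genes, 5 had a higher and 4 a lower sialyllactose mean, with a median difference of 0.01 and a median r of 0.66.

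Of the other effectors, 6 were tested and 3 had a higher and 3 a lower sialyllactose mean. Their median r with the members was 0.68, from 0.14 for SAMHD1, a nucleotide hydrolase, to 0.89 for GBP1, a guanylate-binding protein. MX2, the sister gene of MX1, had r of 0.67 and stayed between 1.60 and 2.33 in sialyllactose retinas and between 1.72 and 2.17 in control retinas. OAS1, which makes the second messenger that activates RNase L, had r of 0.72, and IFIT2 had 0.59. In the list of sensors and their adaptors, which does not hold DDX58, the 2 genes with a named set, MAVS and ZBP1, were dim and were not tested. Of the chemokines only CCL5 was tested, with r of 0.41 and a difference of 0.08. For all 5710 tested genes, 2472 had a higher and 3238 a lower sialyllactose mean, the median difference was -0.01 and the median r was -0.01.

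By the rule for likeness, the non-member genes with the highest r to the members' mean deviation over 18 retinas were ISG15, LOC733579, TAP1, PARP12, PSME2, LOC100519098, USP18, IRF9, SLA-DRA, GBP1, PARP9 and SP140, with r between 0.884 and 0.989. ISG15, a ubiquitin-like protein conjugated to other proteins, led them and had 2.85, 3.33 and 8.02 in sialyllactose retinas and 2.83, 4.20 and 6.47 in control retinas. USP18, which removes ISG15 from its targets and dampens receptor signalling, had r of 0.91 and 2.79, 3.53 and 5.57 in sialyllactose retinas and 2.83, 3.72 and 5.77 in control retinas. The diets overlapped in both genes. The highest ISG15 value was in a sialyllactose retina and the highest USP18 value was in a control retina.

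Of the other genes most alike, TAP1, the transporter that loads peptides for MHC class I, had r of 0.96, with 3.37, 3.63 and 5.61 in sialyllactose retinas and 3.33, 3.95 and 4.98 in control retinas. PSME2, a proteasome activator subunit, had r of 0.92 with a narrow span of 1.87-fold, and SLA-DRA, an MHC class II chain, had r of 0.90 with a span of 4.49-fold. Among all 16788 tested sets that were not members, 44 had r over 0.8 (0.262%), of which 24 had a gene symbol and 20 had none. The pathway lists held 4 of the 12 genes, namely ISG15, USP18, IRF9 and GBP1.

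At the other end, SPARCL1, a secreted matrix-associated glycoprotein, had r of -0.82, ABCG2, a drug efflux transporter of barrier endothelium, had -0.82, and C4H8orf33 had -0.69. SPARCL1 had 7.38, 8.00 and 8.27 in sialyllactose retinas and 7.59, 7.90 and 8.36 in control retinas. ABCG2 had 4.55, 4.88 and 5.20 in sialyllactose retinas and 4.43, 4.76 and 5.08 in control retinas. Without sialyllactose 4 and 7, r was -0.72 for SPARCL1 and -0.86 for ABCG2. These spans were below 2-fold, against 3.60-fold or more in the members.

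Markers of other cells were set beside the members, since in bulk tissue a change in the number of cells of a type and a change in RNA per cell cannot be told apart. The mean deviation of 5 tested microglia and leukocyte markers, out of 12 with a named set, ranged from -0.21 to 0.16 in sialyllactose retinas and from -0.20 to 0.64 in control retinas, with r of 0.27 to the members. The pan-leukocyte marker PTPRC was among the dim sets, between 0.46 and 1.07 in sialyllactose retinas and between 0.61 and 0.93 in control retinas. List scores of T, B and NK cells had r of -0.07, endothelium -0.23, pigment epithelium -0.20, red blood cells -0.13, Müller glia -0.39, rods 0.08 and cones -0.15. Without sialyllactose 4 and 7, r was 0.35 for endothelium, where the sign turned, and 0.44 for microglia and leukocytes. It was -0.19 for T, B and NK cells, -0.26 for pigment epithelium, -0.09 for red blood cells, -0.37 for Müller glia, 0.18 for rods and -0.24 for cones. The Müller glia score ranged from -0.30 to 0.23 in sialyllactose retinas and from -0.18 to 0.30 in control retinas. Measures of RNA and array quality had r of at most 0.0667 in size, including the 3′ to 5′ differences of GAPDH at 0.05 and of actin at -0.07. The part of cell composition in the members' spread was not tested.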

How the data were processed

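The deposited values are log2 levels, 1 for each probe set on each array. The submitters' processing notes name the tools RMA and Affymetrix Expression Console; their settings and the genome build are not given in the sources used here. RMA puts all arrays on 1 distribution and gives no detection call. Groups and replicate numbers came from the sample titles.

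From 24123 probe sets, 124 control sets and the 7200 with the lowest means (30%) were left out, leaving 16799 tested and 5710 genes with a single symbol. Diets were compared as sialyllactose minus control with limma 3.58.1 in R 4.3.3 (lmFit and eBayes, no covariates, 9 arrays per diet, Benjamini-Hochberg over all tested sets, threshold 0.05). The step was tested on simulated data. The number of arrays limits the precision. The labels number 9 replicates per diet without animal or litter identifiers. The limma p-values weigh the diet difference against the spread between these samples within diets.

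Members and lists were chosen with earlier results of these data known. Named genes were all members, the listed pathway genes, the 12 genes most alike and the 3 most opposed by r. Alternatives were other filters, array centring, quantile normalization, array weights, an intensity trend, rank-sum tests, gene means over probe sets, a looser adjusted threshold of 0.1, a replicate block and leaving out each array. Leaving out sialyllactose 4 and 7 together and correlations within each diet were added after the data were seen. Same-numbered piglets deviated together with r over 0.1 in 3 of 9 pairs, from -0.113 to 0.164. In 6 of 18 samples the best match was the sample of the same number. The numbers were not taken as pairs in the main fit, and the replicate block was run as an alternative. Promoter sequences were not analysed here.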

Additional observations from a re-analysis of the deposited data

Results flagged for a closer look

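None of the 9 antiviral genes had a retina set apart by Dixon's criterion within its diet group. The criterion weighs the gap between the extreme retina and the next one. Sialyllactose 4 and 7 held the top 2 places in 9 of 9 genes, so each could hide the other. For these genes the outcome therefore does not show that no retina stood apart. Over 59 probe sets, those of the 9 genes, of the interferon lists and of the genes most alike or most opposed by r, 7 of 118 groups of 9 retinas held 1 value far from the rest, where chance flags about 1 in 20 groups. All 7 were in genes of the interferon lists. In the pathway's receptor and kinases, sialyllactose 9 was the highest sialyllactose retina in IFNAR1 at 4.76, with the next at 4.46, and control 9 was the highest control retina in JAK1 at 7.77, with the next at 7.41. Control 3 was the lowest control retina in TYK2 at 5.35, with the next at 5.52. Control 2 was the highest control retina in IRF3 at 6.01, with the next at 5.67, and in the chemokine CCL2 at 2.02, with the next at 1.57. Control 9 was the lowest control retina in SOCS1, a feedback inhibitor of JAK kinases, at 1.10, with the next at 1.21. Control 8 was the highest control retina in the chemokine CCL5 at 1.83, with the next at 1.58. SOCS1 and CCL2 were among the dim sets. Control 2 also had the lowest array weight, 0.352, and the lowest median correlation with other arrays, 0.983.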

How the results depend on the processing

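Under every alternative run, limma or the exact rank-sum test called 0 of the probe sets it tested after adjustment, and no member with a value passed. The lowest adjusted p of a member was 0.841. The replicate block likewise gave 0. With 1 array of each diet per replicate number, the block cannot change the member differences (MX1 0.22). The sign of the difference was not stable, except in DDX58 and XAF1, where only leaving out sialyllactose 4 and 7 together turned it. By the exact rank-sum test's shift the difference was -0.067 for MX1, -0.26 for IFIT3, -0.24 for IFI44L and -0.23 for ISG12(A). With array weights it was -0.11 for IFI44L and -0.039 for ISG12(A). Sialyllactose 4 and 7 were picked for their high values after the data were seen, so leaving out both could only lower the differences. Without them the difference was -0.33 for MX1, -0.52 for IFIT3, -0.53 for IFI44L, -0.15 for DDX58, -0.14 for XAF1 and -0.57 for ISG12(A). Leaving out 1 retina at a time gave -0.047 to 0.35 for MX1, -0.40 to 0.18 for RSAD2, -0.32 to 0.15 for IFIT1, -0.15 to 0.28 for IFIT3, -0.23 to 0.20 for IFI44L, -0.19 to 0.10 for EIF2AK2, 0.05 to 0.40 for DDX58, 0.02 to 0.25 for XAF1 and -0.21 to 0.32 for ISG12(A). The lowest values came without sialyllactose 7 for MX1, IFIT3, IFI44L, DDX58 and ISG12(A) and without sialyllactose 4 for the other genes. The median pairwise r was 0.905 to 0.936 without 1 retina, and the median SD 0.936 to 1.13. With probe sets of a gene averaged, the SD was 0.704 for IFIT1 and 0.735 for IFI44L, and the median over the 9 genes was 0.748. At an unadjusted p under 0.05, limma counted 494 sets higher and 565 lower in the main setting, against 802 and 669 without a filter, 249 and 448 with a 50% filter, 790 and 342 with arrays centred, and 567 and 479 with quantile normalization. DDX58 and XAF1 fell under the 50% filter and have no value there. The cause of these shifts was not tested.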

Other observations

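Interferon genes left out with the dim sets differed in how far they followed the members. PLSCR1, a phospholipid scramblase induced by interferon, had r of 0.87 with the members' mean deviation over 18 retinas, with 0.57, 0.85 and 1.33 in sialyllactose retinas (lowest, median and highest) and 0.67, 0.74 and 1.15 in control retinas. ZBP1, a sensor of left-handed nucleic acids, had r of 0.77, with 0.89, 1.04 and 1.64 in sialyllactose retinas and 0.75, 1.10 and 1.20 in control retinas. MAVS, the adaptor of RIG-I on mitochondria, had r of 0.51 and ZC3HAV1, a zinc-finger antiviral protein, 0.50. The other dim genes of the interferon lists lay lower, with 0.35 for SOCS1, 0.26 for CCL2, 0.23 for ISG20, 0.21 for IFNG, 0.13 for CXCL9, 0.03 for IFNB1 and -0.29 for SOCS3. PLSCR1 and ZBP1 were singled out after their values were seen, and their whole ranges were under 1 log2 unit.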
